A study of Homo sapiens with 4 samples.

Results

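Potassium channel genes were examined for binding sites of the T-box transcription factor TBX3 in 501mel, an established human melanoma cell line. Members were chosen by symbol alone: a peak counted when the nearest gene in the deposited annotation had a symbol of the KCN series, covering the pore-forming subunits, the silent modifier subunits and the KCNE and KCNMB auxiliary subunits. By this rule 179 of 32479 peaks in ChIP replicate 1 (0.551%) and 216 of 40494 peaks in ChIP replicate 2 (0.533%) belonged to the set. They carried 65 different symbols, of which 54 were protein-coding genes. The RefSeq gene table of GRCh38.p14 held 89 protein-coding members among 19970 protein-coding genes, and 26 members of other kinds, mostly antisense and intronic transcripts.

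Chromatin of 501mel cells carrying TBX3 with a triple HA tag (labelled TBX3-3xHA) was immunoprecipitated with an anti-HA antibody (12CA5) in 2 samples and sequenced. A further 2 samples were input chromatin of the same line, without antibody, and were not analysed here. The labels name no treatment and no sample of untagged cells, and all 4 samples come from 1 cell line. RNA was not measured, so neither the melanoma label nor the expression of any channel was checked.

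Potassium channels are membrane pores that let potassium ions leave or enter the cell along their gradient, and so set the resting potential and end electrical impulses. Voltage-gated members open on depolarisation, and calcium-activated members open when calcium rises inside the cell. Inward rectifiers pass current more readily into the cell than out of it, and tandem-pore (K2P) members carry background leak current. Auxiliary subunits form no pore of their own and change the gating or transport of the pore-forming subunits.

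Each list gives only the summit of a peak, as a single base, with a score whose scale is not stated. The score is therefore read within its own list, as a rank from the highest. A summit of replicate 1 and a summit of replicate 2 were taken as a shared pair when each was the other's nearest and they lay at most 200 bp apart. Of the channel peaks, 118 were paired, which was 65.9% of those in replicate 1 (95% Wilson interval 58.7% to 72.5%) and 54.6% in replicate 2 (48.0% to 61.1%). The mean was 60.3% ± 7.98 (SD, n = 2). The same 118 pairs are counted in both lists, so this SD reflects only the different numbers of channel peaks. Over all peaks the paired shares were 69.9% and 56.1%, inside the channel intervals. The pairs came from 22702 shared pairs in all, and each of the 118 had the same nearest gene in both lists. Intervals here and below cover counting error only, and whether the replicates came from separate cultures is not stated.

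Of the 89 protein-coding channel genes, 10 had a shared pair within 10 kb of their transcription start site (TSS), a share of 11.2% (6.22% to 19.5%). The share over all protein-coding genes was 10.1%, so the channel genes lay near the background. At any distance 34 of the 89 were the nearest gene of a pair, 38.2% (28.8% to 48.6%). The share over all protein-coding genes was 28.6%, just under the lower bound of that interval. The 34 include KCNE1B, whose pairs all lay in repeats far upstream, as described below. The interval was not recomputed without KCNE1B, so the small gap to 28.6% is not read as a difference. Within 1 kb there were 2 genes, KCNN2 and KCNH8, 2.25% (0.618% to 7.83%) against 2.99%. A further 20 channel genes had only unpaired peaks and 35 had no peak, meaning that no peak in either list had them as nearest gene. Such counts were not made over all protein-coding genes, so here and below they only describe the set.

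**Figure D1:**
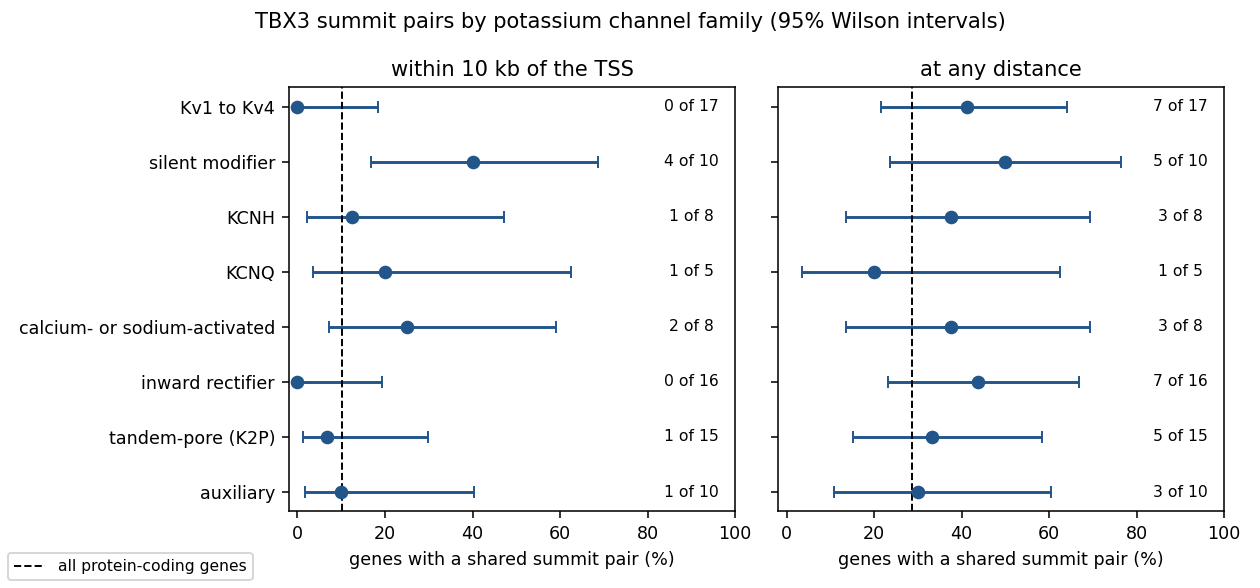
Percent of protein-coding channel genes with a shared summit pair (horizontal) by family (vertical), within 10 kb of the TSS on the left and at any distance on the right. Points are shares, bars 95% Wilson intervals and dashed lines the share over all protein-coding genes. The silent modifiers stand at 4 of 10 on the left, and the inward rectifiers and the Kv1 to Kv4 subunits at 0.

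The calcium-activated KCNN genes, which encode channels opened by calcium through calmodulin, held the highest-scoring pair within 10 kb. At KCNN2 the summits lay on chromosome 5 at 114433641 and 114433652 (hg38), 111 and 122 bp downstream of an annotated start, in exon 1 of 7 of a non-coding transcript of the gene. The score there was 81.7 in replicate 1 (rank 2660) and 101.8 in replicate 2 (rank 3414). It was the only 1 of the 14 channel pairs within 10 kb that stood among the 5000 highest peaks of both lists. A second pair lay 1167 bp downstream, in an L1MC3 repeat, with scores of 11.5 and 44.2. At KCNN3 a pair stood 4168 bp upstream of the start on chromosome 1, at 154864030, in intron 1 of 7 of a longer transcript, with scores of 16.1 and 44.7. In the calcium- or sodium-activated family as a whole, 2 of 8 genes (25.0%, 7.15% to 59.1%) had a pair within 10 kb. KCNU1, a sperm channel placed in this family by its symbol and not by its gating, had pairs farther away only. KCNMA1, the large-conductance calcium-activated channel, and KCNN4 had unpaired peaks only, and KCNN1, KCNT1 and KCNT2 had none.

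KCNH8 held the only channel pair annotated as a promoter. It encodes a voltage-gated channel of the ether-a-go-go-like group. Its summits lay on chromosome 3 at 19148238 and 19148241, 287 and 284 bp upstream of the start used in the deposited annotation. The score was 14.8 in replicate 1 (rank 14738) and 28.9 in replicate 2 (rank 12060), so this pair ranked far below the pair at KCNN2 in both lists. A second pair stood 1029 bp upstream, with 9.69 and 9.97 (ranks 19658 and 24556), and 2 more lay 249483 and 296282 bp upstream. The RefSeq promoter entry for KCNH8 (GRCh38.p14, chr3:19148260-19148509, plus strand, 250 bases before the start) begins just downstream of the near summits. It is shown because it is the promoter next to the only promoter pair, and capitals would mark the T-box letters GGTGTGA or AGGTGT on either strand, of which it has none:

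KCNH8: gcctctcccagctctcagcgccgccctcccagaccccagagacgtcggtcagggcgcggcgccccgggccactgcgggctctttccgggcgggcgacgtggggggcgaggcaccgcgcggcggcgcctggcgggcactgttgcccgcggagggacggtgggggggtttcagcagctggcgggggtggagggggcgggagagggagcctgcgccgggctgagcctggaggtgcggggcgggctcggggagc

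G and C made up 79.2% of those bases. Among the other KCNH genes, KCNH3 and KCNH7 had pairs only beyond 10 kb. KCNH3, a brain channel of the same group, was nearest to 2 pairs inside introns of the neighbouring gene SPATS2, the higher at 45.1 and 107 and 49328 bp upstream. KCNH7 had 3 intergenic pairs between 128610 and 375194 bp upstream, the highest at 41.7 and 82.4. KCNH2, the cardiac ERG channel, KCNH4, KCNH5 and KCNH6 had unpaired peaks only.

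At KCNQ5, a subunit of the neuronal M current, 2 pairs lay upstream on chromosome 6. The pair 3970 bp upstream, at 72617873 and 72617877, had scores of 20.8 and 69.8. The pair 1506 bp upstream, at 72620337 and 72620310, had 21.5 and 51.2. Both fall in the span of the lncRNA gene KCNQ5-DT, which is 8.32 kb long. Both ranked between 10824 and 11194 in replicate 1 and between 5264 and 7218 in replicate 2. KCNQ1 was the nearest gene of no peak in either list, although it held pairs inside its span, described below.

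Silent modifier subunits form no working channel alone and join other voltage-gated subunits, whose gating they alter. In this family 4 of 10 genes had a pair within 10 kb (40.0%, 16.8% to 68.7%). Of the 8 families this was the only 1 whose interval lay wholly above the 10.1% of all genes, and no test was made of it. KCNV2, a subunit of photoreceptors, had pairs 6317 and 9648 bp downstream of its start in its single intron on chromosome 9. The nearer scored 15.8 and 18.3, while the farther scored 3.91 in replicate 1 and 30.04 in replicate 2, ranks of 29773 and 11497. KCNS3 had a pair 8530 bp upstream in an LTR53B repeat, at 26.0 and 11.4. KCNG4 had a pair 4808 bp downstream in intron 2 of 2, at 11.3 and 10.9, and KCNG1 had a pair 8430 bp upstream, at 9.28 and 6.22. None of these 5 pairs reached the top 5000 of both lists. The median score of all peaks was 12.4 in replicate 1 and 13.9 in replicate 2. Only the nearer KCNV2 pair exceeded both medians, so the count of 4 genes rests largely on lower-scoring pairs.

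Single pairs near the start were found for a K2P gene and an auxiliary gene. KCNK15, a member of the acid-sensitive K2P group, had a pair 6910 bp upstream in an MLT1J2 repeat within the span of KCNK15-AS1, with scores of 7.76 and 7.09 that ranked 22879 and 29667. KCNE5, an X-linked auxiliary subunit, had a pair 9535 bp upstream, at 14.1 and 28.0. The distance limit separated close values. Just inside it were KCNE5 and the farther pair of KCNV2, at 9535 and 9648 bp, and just outside was KCNA2 at 10446 bp. With limits of 5 kb and 50 kb the count of channel symbols was 5 and 29.

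**Figure D2:**
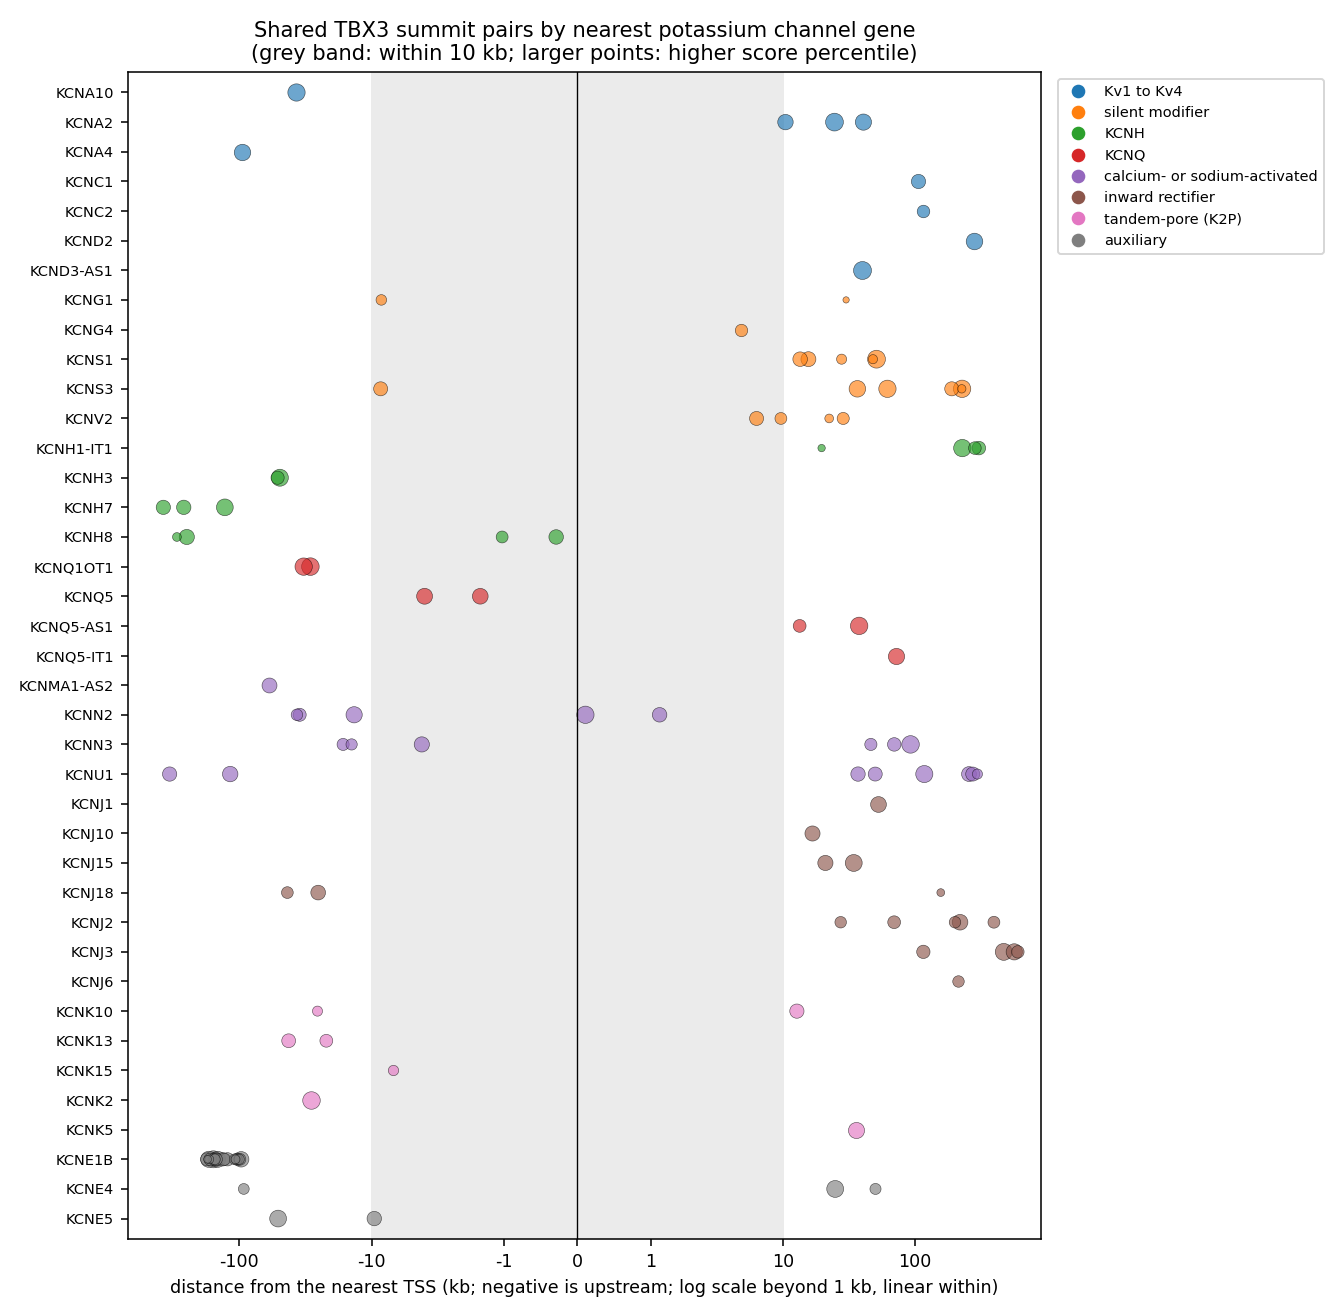
Distance in kb from the nearest TSS to each shared pair (horizontal, negative upstream, linear within 1 kb and log beyond) by nearest channel symbol (vertical). Each point is 1 pair, coloured by family and larger at a higher score percentile, and the grey band marks 10 kb; 1 symbol beyond that band is not drawn. KCNH8 and KCNN2 hold the only points within 1 kb, and the points of KCNE1B all lie far upstream.

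Voltage-gated Kv1 to Kv4 subunits, which repolarise neurons, heart and other excitable cells, had no pair within 10 kb among 17 genes (0%, upper bound 18.4%). Of these, 7 had a pair farther away (41.2%, 21.6% to 64.0%). KCNA2, an axonal delayed rectifier, had 3 pairs. The highest, on chromosome 1 at 110581828 and 110581835, lay 24525 bp downstream of the start in an MLT1K repeat, with scores of 145 and 245 (ranks 1060 and 871). KCNA10 had a pair 37545 bp upstream, at 74.6 and 112. KCNA10, KCNA2 and KCNA3 lie side by side in 157.7 kb, and that stretch held 4 pairs, all of them nearest to KCNA10 or KCNA2. KCNA4, KCNC1, KCNC2 and KCND2 had 1 pair each. KCND2, a subunit of transient A-type current, had 32.0 and 91.8, and KCNA4 had 34.1 and 67.0.

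The inward rectifiers likewise had no pair within 10 kb among 16 genes (0%, upper bound 19.4%) and 7 with a pair farther away (43.8%, 23.1% to 66.8%). KCNJ2, which sets the resting potential of heart and skeletal muscle, had 5 intergenic pairs between 27323 and 393758 bp downstream. The highest scored 18.4 and 63.3. KCNJ3, a G-protein-gated subunit, had 4 pairs from 115262 to 597318 bp downstream, the highest at 42.8 and 110, and 3 of these lay outside any transcript. KCNJ15 had 2 pairs, KCNJ1, the renal outer medullary channel, had 1 in an intron of FLI1, and KCNJ6 and KCNJ10, the glial inward rectifier, had 1 each. The 3 pairs of KCNJ18 are uncertain in assignment, since KCNJ18 is a near copy of KCNJ12 and reads could be split between them.

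Among the K2P genes 5 of 15 (33.3%) were nearest to a pair. KCNK2, a leak channel opened by membrane stretch, held the highest of these, on chromosome 1 at 215054461 and 215054451, with scores of 100.3 and 139.8 (ranks 2026 and 2178). That pair was in intron 1 of 6 of a longer KCNK2 transcript, 28756 bp upstream of the nearest start. KCNK5 had 1 pair in its last intron, at 20.9 and 102. KCNK10, a relative of KCNK2, and KCNK13 had 2 pairs each, and those of KCNK13 lay in introns of TDP1. No peak of either list was nearest to KCNK1, KCNK3, KCNK4, KCNK6, KCNK7, KCNK17 or KCNK18.

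Ranked by the sum of both score ranks, the 10 highest channel pairs included 5 that were nearest to a non-coding KCN symbol. The highest lay on chromosome 1 at 111949052 and 111949044, 39395 bp from the start of KCND3-AS1 and in intron 2 of 6 of KCND3, an A-type channel of heart and brain. Its scores were 299 and 401 (ranks 234 and 288). The next was 50982 bp downstream of KCNS1, at 45050130 and 45050161 on chromosome 20, in a MamSINE1 repeat in intron 10 of 10 of the kinase gene STK4, with scores of 165 and 287 (ranks 825 and 633). These 2 pairs alone stood in the top 1000 of both lists, 1.69% of channel pairs against 3.49% of all pairs. Then came KCNA2, given above.

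Both pairs nearest to KCNQ1OT1, the imprinted antisense transcript of KCNQ1, were in the 10 highest. They lay in intron 11 of 15 of KCNQ1, the cardiac and epithelial channel, at 2729000 and 2728986 and at 2732601 and 2732630 on chromosome 11. The scores were 109 and 163 (ranks 1756 and 1764) for the first and 82.3 and 112.9 (ranks 2644 and 2949) for the second. The pair nearest to KCNQ5-AS1 was in intron 6 of 13 of KCNQ5, at 73105835 and 73105849 on chromosome 6, with 81.7 and 150.3 (ranks 2660 and 1976). The pair nearest to KCNH1-IT1 was in intron 7 of 10 of KCNH1, at 210906225 and 210906202 on chromosome 1, with 72.7 and 135.4 (ranks 3114 and 2287). These were sites inside channel genes that a count by nearest coding gene does not credit to the channel.

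The remaining pairs of the 10 were at KCNK2, KCNN3 and KCNS3. KCNN3 had 6 pairs, and its highest was in intron 3 of 8 at 154767653 and 154767686, 92209 bp downstream, with 104 and 129 (ranks 1923 and 2477). KCNS3 also had 6, and its highest was intergenic on chromosome 2 at 18104916 and 18104931, 226259 bp downstream, with 80.4 and 121 (ranks 2726 and 2692). KCNN2, KCNS1 and KCNJ2 had 5 pairs each. KCNU1 had 8, from 36952 to 336399 bp from its start, and the highest scored 53.2 and 111 (ranks 4477 and 3010).

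**Figure D3:**
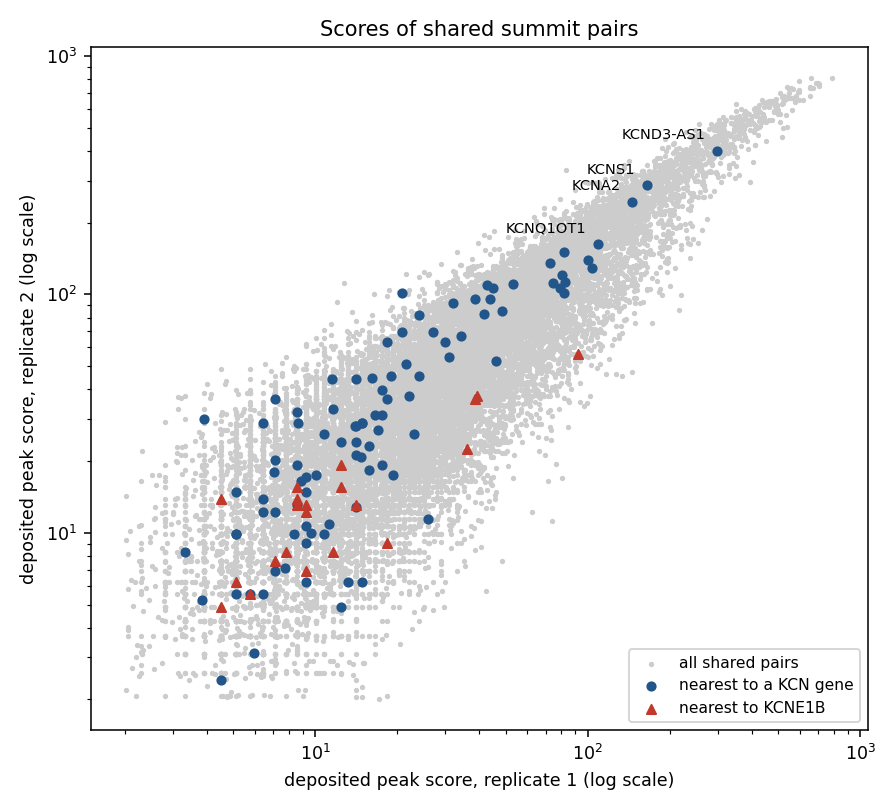
Deposited peak score in replicate 1 (horizontal, log axis) and in replicate 2 (vertical, log axis) for the shared pairs of channel genes, with all shared pairs in grey and those of KCNE1B as triangles. The 4 labelled points are the channel pairs with the lowest rank sums, and the median score of the KCNE1B pairs is 9.28 and 13.1.

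The set held 1 large group of pairs unlike the rest. KCNE1B, a near copy of the cardiac auxiliary subunit gene KCNE1 that the gene table lists as LOC102723475 on chromosome 21, was the nearest gene of 41 peaks in each list and of 21 pairs, 17.8% of all channel pairs. All 21 lay between 96775 and 175405 bp upstream of it in repeats: 12 in ALR/Alpha satellite, 1 in a (CATTC)n satellite, 7 in the simple repeat (ATTCCATTCC)n and 1 in L1PA4. Reads from repeats of this kind can align at many places, and how such reads were treated is not given in the sources used here. The median score of these pairs was 9.28 and 13.1, while that of the other 97 channel pairs was 14.8 and 28.8. KCNE1 itself was the nearest gene of no peak. The medians and class shares of channel pairs that follow are given with KCNE1B and then without.

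The median score of the channel pairs stood at percentile 53.4 of replicate 1 and 65.3 of replicate 2, or 54.6 and 70.2 without KCNE1B, against 63.6 and 70.5 for all shared pairs. By position 59.3% of channel pairs were intergenic (50.5% without KCNE1B) and 39.0% intronic (47.4%), against 53.2% and 39.7% of all pairs. Promoter pairs made up 0.847% (1 of 118), or 1.03% without KCNE1B, against 2.52%. The median distance to the TSS was 51687 bp, or 40594 bp without KCNE1B, and 51090.5 bp over all pairs. Upstream pairs were 48.3% of the channel pairs, 37.1% without KCNE1B and 43.0% of all. Repeats held 48.3% of channel pairs (37.1% without KCNE1B) against 41.7% of all. Thus KCNE1B moved each of these channel values, and no satellite pair remained without it, while satellites held 16.6% of all pairs. Values without KCNE1B therefore lack satellite pairs on the channel side only and are not like for like with all pairs. LTR, LINE and SINE repeats held 14.4%, 10.3% and 8.25% of channel pairs without KCNE1B, against 10.5%, 7.07% and 4.31% of all. No test was made of these shares.

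Sites were next counted by the span of the channel gene itself, whichever start was nearest. A shared pair fell in the span of 25 of the 89 genes, 28.1% (19.8% to 38.2%), against 20.9% of protein-coding genes. The spans held 52 pairs, of which 28 were nearest to the gene they lay in, 11 to a non-coding KCN symbol and 13 to a gene outside the set. KCNQ5, with a span of 576.8 kb, held 8 pairs, none of them nearest to KCNQ5. KCNN2 held 5, and KCNN3, KCNH1 and KCNB2 held 4 each. KCNB2, a delayed rectifier, was the nearest gene of no peak, since its pairs were nearest to LOC101926908 or TERF1, and the highest scored 66.5 and 119.5. KCNG3, a silent modifier, held 1 pair at 116.9 and 233.5 (ranks 1551 and 949) that was nearest to COX7A2L.

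**Figure D4:**
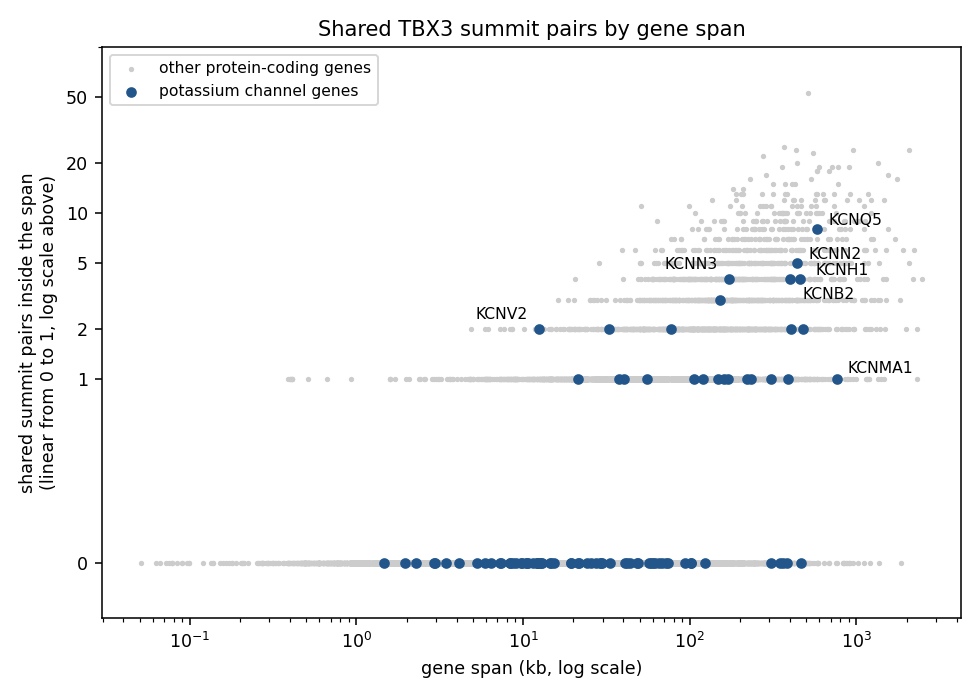
Number of shared summit pairs inside the gene span (vertical, linear from 0 to 1 and log above) against span length in kb (horizontal, log axis), with 1 point per gene for channel genes and other protein-coding genes. KCNQ5 has the most pairs among the channel genes, 8, and KCNMA1 has 1 in a longer span.

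Channel genes were longer than all protein-coding genes together, with a median span of 33.4 kb against 24.2 kb. By length, a pair fell in 1 of 34 channel genes of at most 20 kb (2.94% against 3.92% of all genes) and in 6 of 29 of 20 to 100 kb (20.7% against 21.9%). It fell in 9 of 12 of 100 to 300 kb (75.0% against 58.1%) and in 9 of 14 above 300 kb (64.3% against 83.3%). Among genes of at most 20 kb, 12 of 34 channel genes (35.3%) were the nearest gene of a pair at any distance, against 16.4% of all. KCNE1B was among those 12. From 20 to 100 kb these shares were 27.6% and 30.5%, from 100 to 300 kb 66.7% and 53.6%, and above 300 kb 42.9% and 68.6%. The channel counts in each length class were small, and no interval or test was made of them. Per length the channel spans held 5.45 pairs per Mb and all protein-coding spans 7.35. KCNMA1, with a span of 768.2 kb, held 1 pair, in intron 12 of 28, with scores of 14.1 and 44.2.

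Channel peaks left without a partner scored lower. Such a peak need not be absent from the other list, since some had a summit there just beyond 200 bp. The median score of unpaired channel peaks was 5.36 in replicate 1 and 6.57 in replicate 2, against 14.1 and 23.5 for paired ones. Without KCNE1B these medians were 5.12 and 6.29 for unpaired and 14.8 and 28.8 for paired peaks. Within 10 kb of a start there were 8 unpaired channel peaks in replicate 1 and 9 in replicate 2. KCNN2 had a promoter peak in replicate 1 alone (score 10.5). KCNJ13, an inward rectifier of the retinal pigment epithelium, had one in replicate 2 alone (9.09), 856 bp upstream. KCNH4 had the highest of these, in replicate 2 alone, at 39.3. At KCNS3 a summit of each list (16.6 and 34.3) missed pairing with a gap of 208 bp, while the widest gap among channel pairs was 191 bp, at KCNE1B.

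The promoters of channel genes were read for letters of the T-box half-site. T-box proteins are known to bind DNA that holds GGTGTGA, and the shorter AGGTGT, which can overlap it, was also searched, both on either strand. The RefSeq promoter table (GRCh38.p14) held 93 promoters of 66 channel genes. GGTGTGA stood in the 250 bases before the start in 6 of the 93 (6.45%), against 571 of 22155 promoters of all genes (2.58%). AGGTGT stood in 9 of 93 (9.68%) against 2013 of 22155 (9.09%). These shares count promoters, not genes, and have no interval and no test. The GGTGTGA match of KCNH2 was in 1 of its 5 promoters, and those of KCND3 and KCNK10 in 1 of 2. No summit of either replicate lay inside a promoter window of these 66 genes. The 6 stretches with GGTGTGA are shown on the strand of the gene, with the motif or its reverse complement in capitals:

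KCNA10: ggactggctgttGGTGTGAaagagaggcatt
KCNA6: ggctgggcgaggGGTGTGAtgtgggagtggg
KCND3: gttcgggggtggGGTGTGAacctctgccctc
KCNH2: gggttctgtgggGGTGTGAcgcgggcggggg
KCNK7: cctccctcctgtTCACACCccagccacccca
KCNK10: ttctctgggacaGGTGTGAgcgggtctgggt

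The nearest summits to the KCNK10 match, where both motifs overlap, were 12866 and 12852 bp away in replicates 1 and 2. At KCNA10 they were 4052 and 12482 bp away, the nearer an unpaired peak of replicate 1 that scored 4.89 (rank 28350). At KCND3 they were 40206 and 12423 bp away, and at KCNH2 86091 and 63483 bp. At KCNK7 they were 100246 and 98268 bp away, and at KCNA6 130552 and 84341 bp. KCNA6, KCND3 and KCNK7 were the nearest gene of no peak in either list. Of the 10 genes with a pair within 10 kb, KCNG1 and KCNK15 had no promoter entry and were not searched. The only entry for KCNN2 ends at 114362069, so the start beside its pair at 114433641 was not searched. Among the entries that these genes did have, only KCNN3 had a match, AGGTGT in 1 of its 3 promoters, 4231 and 4209 bp from the nearest summits:

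KCNN3: aaaaatggctacAGGTGTtacctgggcaga

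A match here describes the letters of the window and does not show a bound site.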

How the data were processed

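Summits of 2 TBX3-3xHA ChIP samples were analysed, leaving out 2 input samples. The authors annotated each sample's summits with HOMER annotatePeaks.pl on hg38, without pooling, per the file headers. FastQC 0.11.7, cutadapt 2.8, Bowtie2 2.3.5, SAMtools 1.9 and MACS2 2.1.2 are named in the submitters' processing notes, without parameters. The deposited peak score has no stated scale, started at about 2 and was used only within its list. Distances, nearest genes, classes and repeats are the deposited ones, from replicate 1 for a pair. Read depth is unknown.

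Summits were paired at 200 bp or less, genes counted within 10 kb, and shares given with 95% Wilson intervals beside all protein-coding genes of RefSeq GRCh38.p14 on the named chromosomes without Y. KCNE1B was matched through a synonym. Python 3.11.15, pandas 2.3.3 and SciPy 1.17.1 were used, and pairing was tested on simulated data. With 1 condition, no significance test was made. Named were every gene with a pair within 10 kb, the 10 pairs with the lowest rank sum, pairs within 1 kb and the genes with most pairs. Others were named to describe a family. Members and lists were chosen with earlier results of these data known. Alternatives covered pairing distance, score, repeats, distance to the start, gene kind and each replicate alone. Results for some members are not reported here by name.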

Additional observations from a re-analysis of the deposited data

How the results depend on the processing

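Genes are counted here by symbol, non-coding ones included (10 within 10 kb and 40 at any distance). The number of channel genes with a pair within 10 kb was 2 with a 1 kb limit, 5 with 5 kb, 29 with 50 kb and 31 when a pair could lie anywhere in the gene span or 10 kb around it. Scores of at least the list median left 6 such genes, 60 pairs and 72.6% of channel peaks paired. Only the top 5000 peaks left 1 gene within 10 kb, 13 genes at any distance, 15 pairs and 79.5% paired. Those 15 were 12.7% of channel pairs, while 17.8% of all shared pairs stood in the top 5000 of both lists. Paired shares over all peaks were not computed under the alternatives. Apart from the 1 kb limit (2.99% of all protein-coding genes), gene counts over all genes were not made for the alternatives named here. The channel gene counts under them therefore only describe the set. Without repeats 8 genes within 10 kb and 61 pairs were left, and pairing within 50 bp left 7 genes within 10 kb, 35 at any distance and 79 pairs and lowered the paired share to 40.4%. With either replicate left out, where every peak of the other counts, 16 to 17 genes had a peak within 10 kb, 55 to 57 at any distance, and 179 to 216 peaks took the place of pairs. An alternative chosen after seeing the data left out KCNE1B and gave 97 pairs and the same 10 genes within 10 kb. Taking the nearest gene from replicate 2 was not run for the paired share, since each peak already uses its own list. No paired analysis was possible because the input samples that share replicate numbers with the ChIP samples were not analysed here and no comparison was tested. Unknown depth and 2 lists from 1 cell line limit all counts.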

Other observations

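Genes of proteins that work with potassium channels, and other ion channels, were counted in the same way, as values with no test and with 95% Wilson intervals. Over all protein-coding genes 10.1% had a shared pair within 10 kb and 28.6% at any distance. Of 14 channel partners, which bind Kv channels or large-conductance channels without being members by symbol, 3 had a pair within 10 kb (21.4%, 7.57% to 47.6%), namely KCNAB1, KCNAB2 and LRRC52, and 9 at any distance (64.3%, 38.8% to 83.7%). KCNIP3, a calcium-binding partner of A-type channels, was nearest to a pair 12926 bp upstream with scores of 407 and 479 (ranks 102 and 165), higher in both lists than any channel pair. KCNAB2, a cytoplasmic Kv beta subunit, had a pair 9499 bp upstream with 350.3 and 346 (ranks 154 and 402). The partner interval within 10 kb contained 10.1%, while that at any distance lay above 28.6%. The partners were also longer, with a median span of 63.9 kb against 24.2 kb for all protein-coding genes.

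Among 14 voltage-gated sodium channel genes, 1 had a pair within 10 kb, SCN1A (7.14%, 1.27% to 31.5%), and 2 at any distance (14.3%, 4.01% to 39.9%). Both intervals contain the share of all genes. Of 26 voltage-gated calcium channel genes, 1 had a pair within 10 kb, CACNA1D (3.85%, 0.682% to 18.9%), and 9 at any distance (34.6%, 19.4% to 53.8%), again with the share of all genes inside both intervals. Among 45 glutamate and GABA receptor genes, 3 had a pair within 10 kb (6.67%, 2.29% to 17.9%), namely GABRR2, GABRR3 and GRIK2, and 19 at any distance (42.2%, 29.0% to 56.7%). The receptor interval within 10 kb contained the share of all genes, while that at any distance lay just above it. GABRR2 had a pair 4152 bp downstream with scores of 306 and 449. At any distance the intervals of the sodium, calcium and receptor lists overlap each other and that of the potassium channel genes. The median spans of these 3 lists were 109.1, 112.5 and 146.8 kb, and no share here was adjusted for gene length.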
